A study of Homo sapiens with 4 samples.

Results

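Molecular chaperones of the cytosol and the mitochondrion were described in LX-2, a human line of hepatic stellate cells, the liver cells that turn fibrogenic, through the cytidines at which sodium borohydride sequencing recorded a mismatch. Sodium borohydride reduces N4-acetylcytidine (ac4C), the acetylated cytidine that NAT10 writes into RNA, and the reduced base can be misread during reverse transcription. The members were chosen by gene name: the HSP70 and HSP110, HSP90, chaperonin, small heat shock protein and J-domain families with BAG3, without the endoplasmic reticulum (ER) proteins HSPA5, DNAJB9, DNAJB11, DNAJC3 and DNAJC10. They comprised 166 of the 18336 pairs of a position and a gene in the deposited data, in 48 of 6112 genes. The label does not cover every member. Among those which the names kept, HSPA13, DNAJB12, DNAJC1 and DNAJC14 are proteins of the ER, and other members may be too. The ER members named here held 5 positions in control and 8 after TGF-β1.

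All cells were of wild-type genotype and of the same established line. One group was untreated (control) and the other received recombinant TGF-β1, the main profibrotic growth factor of these cells, at 5 ng/ml for 24 h, with 2 libraries each described as biological replicates. The authors deposited 1 table per group, so each position has 1 mismatch difference per group, no replicate error and no known depth. No library is labelled as left without borohydride or as lacking NAT10, so none of the listed mismatches can be equated with ac4C from these data alone. All mismatch differences below are the authors' values, printed in percent, and no test between the groups could be made. A position missing from a table has no value there. In place of a spread between replicates, the counts over the members are set beside the same counts over all genes. Of 14 stellate cell markers 7 carried a listed position, against none of 8 hepatocyte markers and 1 of 8 macrophage and endothelial markers (CD68). COL1A1, TAGLN, VIM and TIMP1 carried one in both groups (4 genes), and COL3A1, ACTA2 and PDGFRB after TGF-β1 only (3 genes). COL1A2, DES, PDGFRA, DCN, LUM, RGS5 and LRAT carried none. A gene without a listed position may still be expressed.

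Chaperones bind unfolded stretches of other proteins and let them fold or be handed on. HSP70 proteins cycle with ATP, J-domain proteins deliver clients to them and stimulate that ATP hydrolysis, and HSP110 and BAG proteins release the nucleotide. HSP90 acts later on kinases and receptors, and the ring-shaped chaperonin CCT folds actin and tubulin, which are abundant in contractile myofibroblasts. Mitochondria keep their own HSP70, HSP90 and chaperonin.

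For 8 member positions the bases around the cytidine could be read, because they lay at least 12 bases inside a RefSeq promoter window (GRCh38.p14, 250 bases before to 50 after a gene's start). They are shown because they let the coordinates be checked and show the local context, with the listed C in capitals and the transcript strand written 5′ to 3′.
DNAJA1, chr9:33025281-33025305, plus strand: ttccagaacgctCggtgagaggcgg
CCT7, chr2:73234323-73234347, plus strand: gcggcccggtctCggagaagagggg
DNAJC7, chr17:42017345-42017369, minus strand: ggagctgctcgaCgaccaagaggcg
DNAJB1, chr19:14518137-14518161, minus strand: cttcgaccgctaCggggaggaaggt
DNAJB1, chr19:14518140-14518164, minus strand: gatcttcgaccgCtacggggaggaa
CCT4, chr2:61888377-61888401, minus strand: gcaacatttccgCcgccaaaggtat
CCT4, chr2:61888509-61888533, minus strand: ccaacccagacaCagcggagtttgc
CCT4, chr2:61888520-61888544, minus strand: tccttcccgagcCaacccagacaca
The CCT4 bases were read from the opposite strand of the window of its neighbour COMMD1. In all 8 the printed base was C on the gene's strand, as it was at all 406 listed positions of the series that lay in such a window. Positions are therefore given with the tables' end column as the 1-based coordinate of hg38. The triplet CCG, reported elsewhere as a motif of ac4C, had the listed C in its middle at 0 of the 8 member positions and at 43 (10.6%) of the 406, against 9.55% of all 30227 C of the same 342 windows. A G followed the listed C at 4 of the 8 and at 55.7% of the 406, against 30.1% of all those C. One preceded it at 2 of the 8 and at 49.5% of the 406, against 36.9%. These windows cover only positions near gene starts. All those C include bases before the gene's start, which its transcripts may not hold, so the compared sets are unlike.

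Chaperone transcripts had more listed cytidines after TGF-β1 than in untreated cells. In control 74 member positions in 37 genes were listed, and after TGF-β1 131 in 42 genes, a ratio of 1.77 against 1.46 over all genes. Of the 48 genes 32 (66.7%) had more positions after TGF-β1, against 51.2% of all genes, 8 had fewer (16.7%, against 35.3%) and 8 had equal numbers. A gain of at least 3 positions was present in 8 genes (16.7%, against 14.2% of all genes) and a loss of that size in 0, against 3.96% of all genes. Part of this moves with the longer TGF-β1 list. When only as many of its positions as control had were kept, by lowest p-value, 23 of 44 chaperone genes (52.3%) had more positions, against 39.0% of all genes. Fewer positions were present in 12 chaperone genes, a share not computed over all genes. The chaperone ratio was then 1.38, while that over all genes was 1.00 because the shortening sets it. Only the TGF-β1 list was cut by p-value, so the 2 lists then had unlike p-value limits. What this adds to the remaining difference was not tested. Reads per transcript are not given, so the part of transcript level or depth in these counts was not tested.

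**Figure D1:**
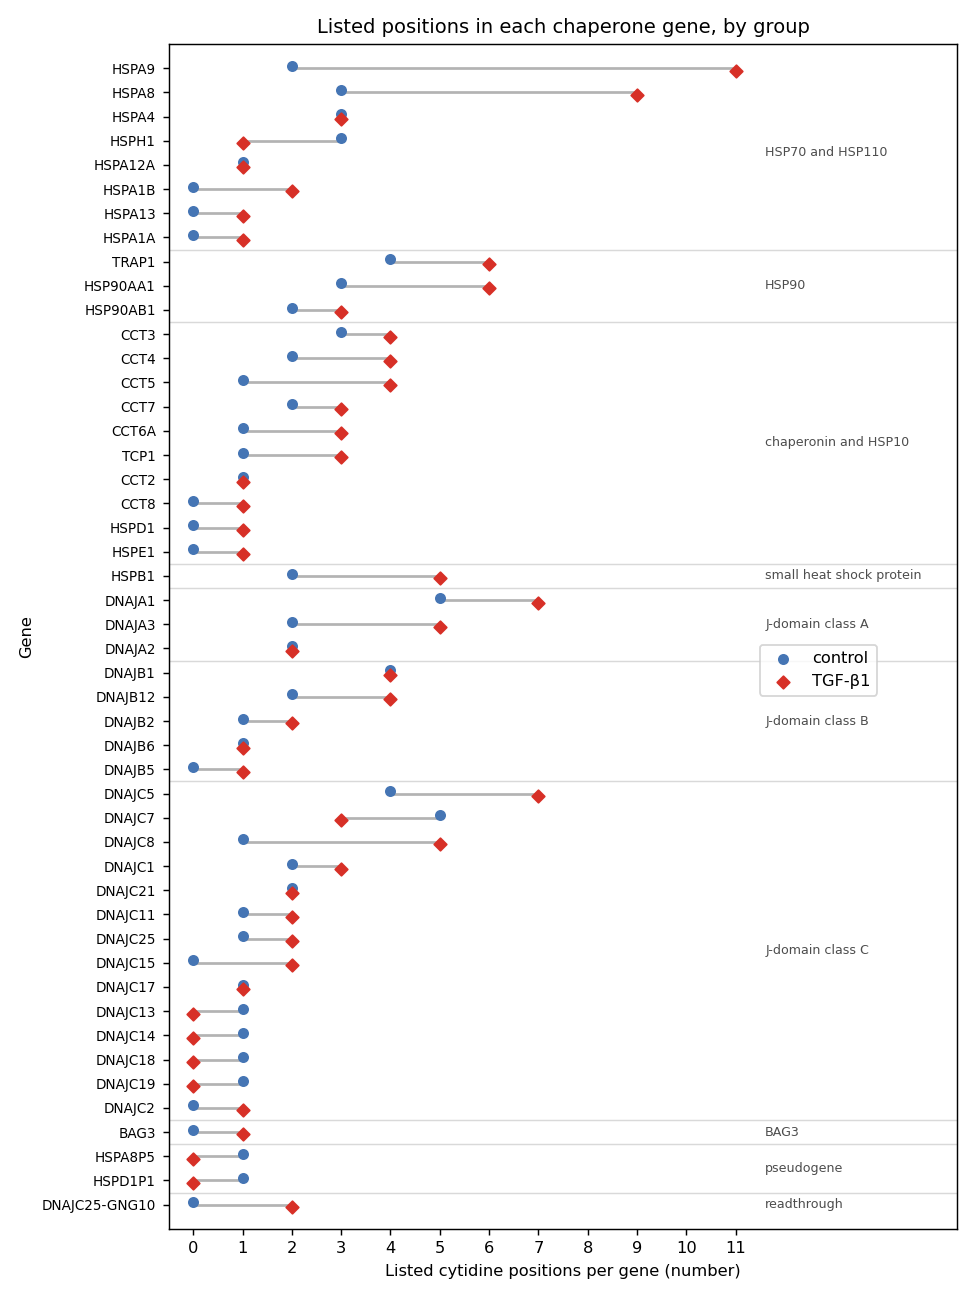
Number of listed cytidine positions in each of the 48 chaperone genes (horizontal axis) in control (circles) and after TGF-β1 (diamonds), grouped by class, with a line joining both values of a gene. HSPA9 runs from 2 to 11 and HSPA8 from 3 to 9, while DNAJC7 and HSPH1 run the other way, from 5 to 3 and from 3 to 1.

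The mismatch differences themselves were low in control. Their median was 3.21% over the 74 control positions, with a range from 1.01 to 27.9%, against 4.04% over all genes. After TGF-β1 the median was 4.92% over 131 positions, from 1.17 to 31.7%, against 4.68% over all genes. At least 5% was listed at 13 control positions (17.6%, 95% Wilson interval 10.6 to 27.8, counting error only), where all genes had 38.8%. After TGF-β1 it was 65 positions (49.6%, 41.2 to 58.1), where all genes had 46.7%. Among positions of at least 5% the ratio of TGF-β1 to control was thus 5 for the chaperones and 1.75 for all genes. At 10% or more stood 5 control and 17 TGF-β1 positions (6.76 and 13.0%, against 12.3 and 18.4% of all).

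**Figure D2:**
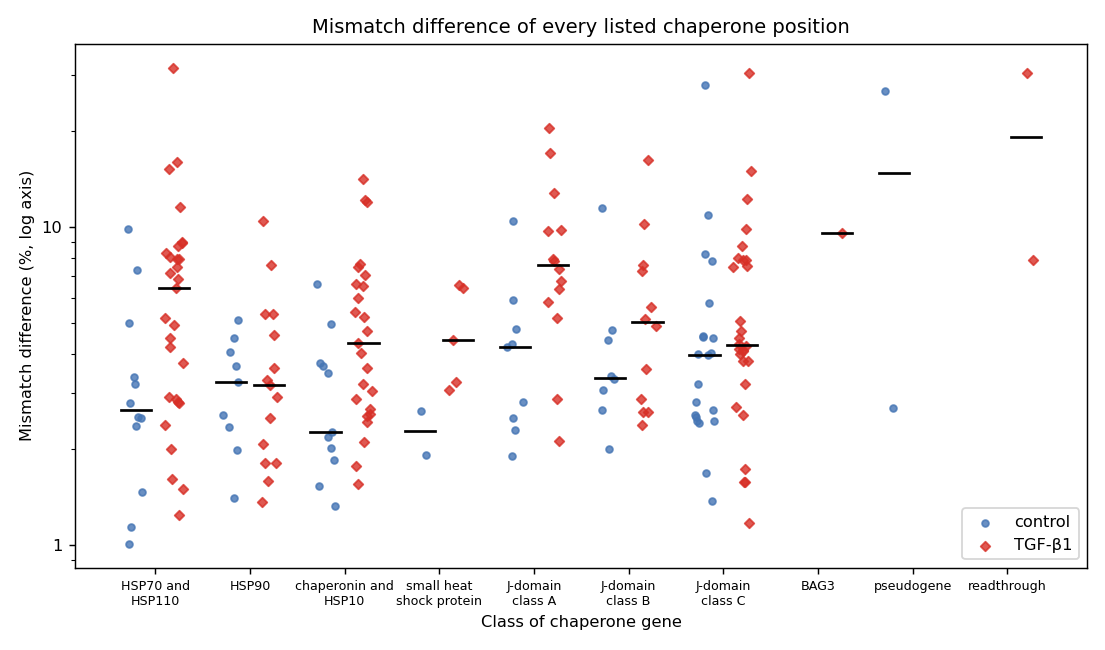
Mismatch difference in percent (log axis) of every listed chaperone position, by class and group (circles control, diamonds TGF-β1), with black bars at the medians; sideways spread within a column has no meaning. The median of the HSP70 and HSP110 class was 2.66% (control) and 6.43% (TGF-β1), and that of the HSP90 class 3.26 and 3.19%.

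Chaperone cytidines recurred between the lists. Of the 74 control positions 39 (52.7%, Wilson interval 41.5 to 63.7) were listed again after TGF-β1, against 24.6% over all genes. Within genes present in both tables the share was 57.4% of 68, against 34.7%. As a share of the TGF-β1 list it was 29.8%, against 16.9% over all genes. The share of the control positions was 8 of 9 in the HSP90 class, 9 of 11 in the chaperonins and 8 of 9 in the class A J-domain proteins, but 2 of 8 in class B, 6 of 21 in class C and 0 of 2 in HSPB1. Whether recurrence differs between the classes was not tested.

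Of the 39 shared positions, 33 had the higher mismatch difference in treated cells (84.6%, Wilson interval 70.3 to 92.8), against 78.1% of all shared positions. The median went from 2.56% to 4.92%, and position by position the median change was 1.63 points (order-statistic interval 1.22 to 2.16), against 1.70 over all genes. A value at least 2-fold higher was listed at 10 of them (25.6%, against 27.4% of all). The size of the shift was thus near the background. No shared member position was lower by at least 2-fold, and over all genes only 33 of 2038 were, so this too was near the background. The 6 lower member positions were in CCT2, CCT4, DNAJA1, DNAJC11, HSP90AA1 and TRAP1. Several of the 39 lie in the same gene, with 5 in DNAJA1, 4 in TRAP1 and 3 each in HSPA4 and HSP90AA1, so they are not independent.

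**Figure D3:**
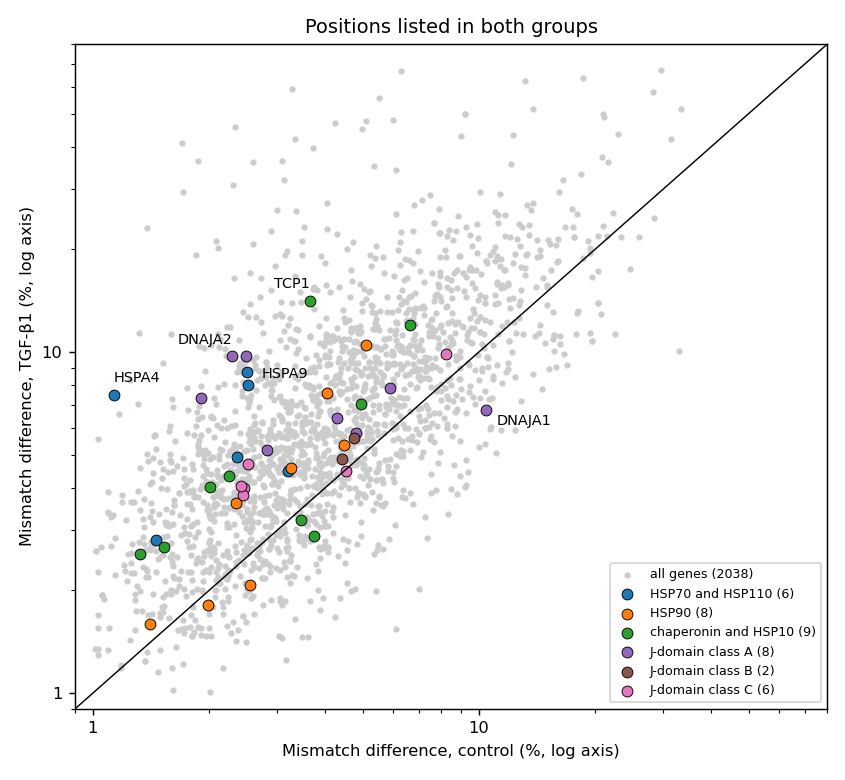
Mismatch difference in control (horizontal, percent, log axis) and after TGF-β1 (vertical, percent, log axis) at positions listed in both tables, for all genes (grey, 2038) and the 39 chaperone positions, coloured by class; the line marks equal values. Of the chaperone points 33 lie above the line, and the 5'UTR position of DNAJA1, at 10.4 and 6.76%, lies farthest below it.

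Each class holds between 1 and 14 genes, and its counts have the same background as the members together: 51.2% of all genes with more and 35.3% with fewer positions, a ratio of 1.46, and 78.1% of shared positions higher. The HSP70 and HSP110 genes had 12 control and 29 treated positions (ratio 2.42) in 8 genes, of which 5 had more, 1 fewer and 2 equal numbers. HSPA9, the mitochondrial HSP70 that pulls imported proteins into the matrix, had the largest gain of any member, from 2 to 11 positions. Its shared position, chromosome 5 position 138573793 on the minus strand, annotated as 5'UTR, had 2.50% in control and 8.73% after TGF-β1. The other control position, 138559941 in coding sequence, had 2.79% and was not listed after TGF-β1, although a coding position on either side of it was listed then only, at 15.2% (138559880) and 16.02% (138560004). A further 3 coding positions lay close together at 138556798, 138556825 and 138556831, with 8.27, 7.93 and 8.92% after TGF-β1. The remaining 5 positions of the treated cells ran from 1.61 to 7.94%. Without HSPA9 the chaperones had 72 and 120 positions, a ratio of 1.67.

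HSPA8, the constitutive cytosolic HSP70 that also uncoats clathrin vesicles, went from 3 to 9 positions. Its shared positions on chromosome 11 were 123059245, with 3.21 and 4.48%, and 123059945, with 2.36 and 4.92%. The coding position 123059758 was listed after TGF-β1 only, at 8.98%, the highest of the gene. Both neighbours 123059995 and 123059996 were listed after TGF-β1 only, at 2.80 and 5.16%. In control only, a 3'UTR position had 1.01%, the lowest member value of that table. The 4 HSPA8 positions annotated as 5'UTR carried that label from 1 transcript each, and 123059245 lay downstream of 3 positions annotated as coding on 8 transcripts.

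HSPA4 and HSPH1, the nucleotide exchange factors of the HSP110 branch, differed from each other. HSPA4 had the same 3 coding cytidines in both lists, on chromosome 5: 133088428 went from 1.13% to 7.48%, 133092754 from 1.46 to 2.81% and 133103929 from 2.53 to 8.03%. The first of these had the largest relative difference of the 39 shared positions, 2.72 on the log2 scale. Its control value, 1.13%, was near the lowest value listed in control over all genes, 1.00%. HSPH1 had 3 positions in control, at 3.38, 4.98 and 7.34%. After TGF-β1 it had a different one, at 11.5%, where the authors' p-value was exactly 0. The stress-inducible pair HSPA1A and HSPA1B was listed after TGF-β1 only, with 1 position at 1.24% and 2 adjacent ones at 3.73 and 4.21%. These genes are near-identical copies, so reads of one may have been placed on the other. HSPA12A, a divergent family member, had 9.83% at a coding position in control and 31.7% at a 3'UTR position after TGF-β1 (chromosome 10 position 116673869), the highest member value of the treated cells. HSPA13 had 1 position after TGF-β1, at 6.43%.

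**Figure D4:**
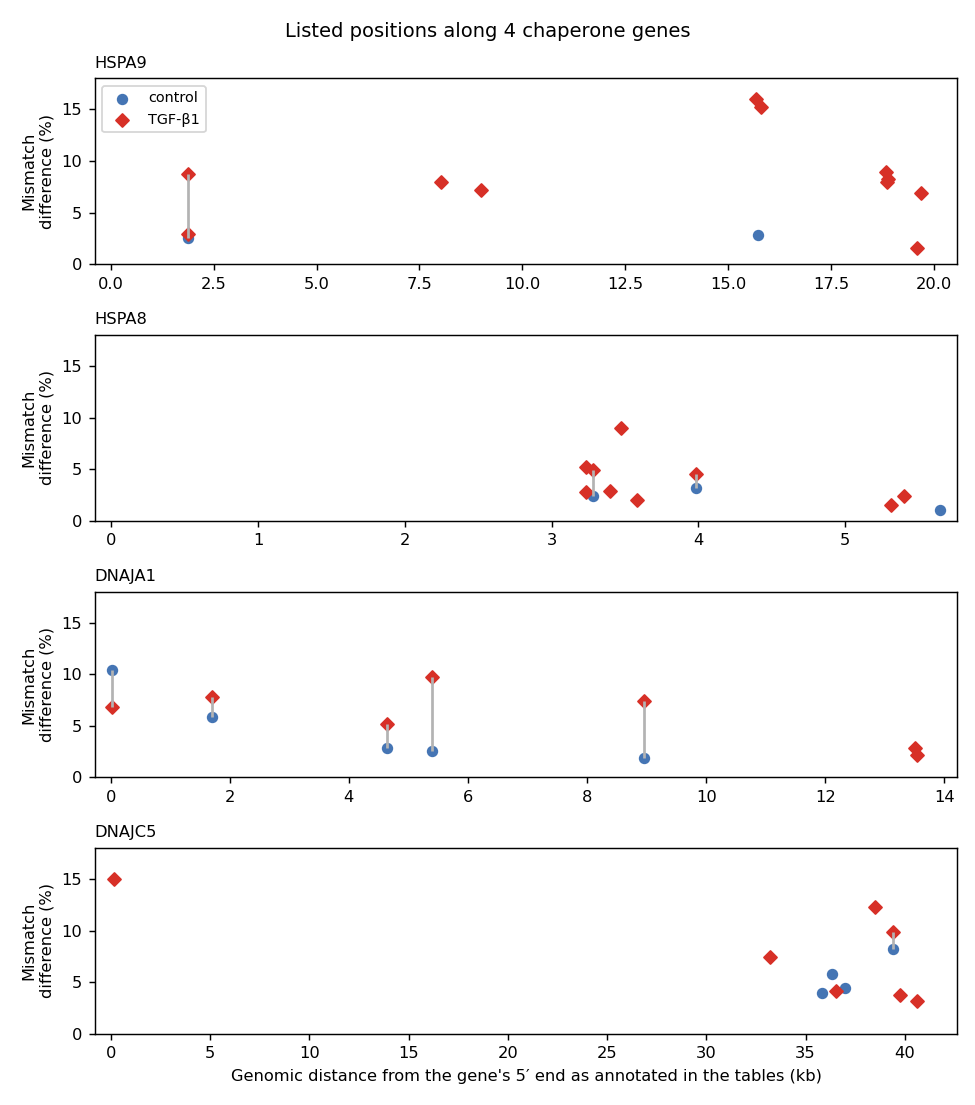
Listed positions along HSPA9, HSPA8, DNAJA1 and DNAJC5: the horizontal axis is the genomic distance in kb, introns included, from the 5′ end of the gene, and the vertical axis the mismatch difference in percent (circles control, diamonds TGF-β1, lines joining values of a shared position). In HSPA9 10 of the 12 positions were listed after TGF-β1 only, whereas in DNAJA1 5 of 7 were shared. Over all genes 10038 of the 12076 TGF-β1 positions were listed after TGF-β1 only and 16.9% were shared. The HSPA9 share, 10 of its 11 TGF-β1 positions, was thus not far from the background.

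HSP90 genes kept nearly all of their control positions. They had 9 control and 15 treated positions (ratio 1.67), and each of the 3 genes had more. HSP90AA1, the inducible cytosolic form, had 3 and 6 coding positions on chromosome 14. Its strongest shared position, 102083674, had 4.46 and 5.33%, 102083676 had 1.99 and 1.81%, and 102083548 had 1.40 and 1.59%, so that all 3 changed by less than 1 point. After TGF-β1 a neighbouring cytidine, 102083672, was listed besides, at 1.37%. HSP90AB1, the constitutive form, had 2 and 3 positions, and its shared one, chromosome 6 position 44251882, had 4.04 and 7.58%. TRAP1, the mitochondrial HSP90, had 4 and 6 positions on chromosome 16, and all 4 control ones recurred. Of these 3662005 had 5.11 and 10.5%, 3665982 had 3.26 and 4.58%, 3690846 had 2.35 and 3.61%, and 3664296 had 2.56 and 2.07%.

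Chaperonin genes had 11 control and 25 treated positions (ratio 2.27), and of 10 genes 9 had more and none fewer. All 8 subunits of the cytosolic ring were listed, with 11 and 23 positions. TCP1, the founding subunit, had 1 and 3 positions. Its shared coding cytidine, chromosome 6 position 159779704, had 3.65% in control and 14.1% after TGF-β1, the largest difference in points of any member (10.5). The authors' p-value there was exactly 0 after TGF-β1. CCT7 had 2 and 3 positions on chromosome 2. Its coding position 73240500 had 6.64 and 11.97%, and its 5'UTR position 73234335, whose bases are printed above, had 4.96 and 7.06%. CCT3 had 3 and 4 positions, with 2.26 and 4.32% at chromosome 1 position 156310565 and 1.53 and 2.68% at 156317201. CCT5 had 1 and 4, and its shared position went from 1.33 to 2.55%. CCT6A had 1 and 3, with 2.01 and 4.03% at a shared 3'UTR position. Lower values after TGF-β1 were listed for CCT2 (3.74 and 2.88%) and for the shared position of CCT4 (3.47 and 3.22%), a gene with 2 and 4 positions whose 5'UTR pair shown above was listed after TGF-β1 only. CCT8 had 1 position after TGF-β1, at 5.22%. HSPD1 and HSPE1, the mitochondrial chaperonin and its lid, had 1 position each after TGF-β1 only, at 12.1 and 1.55%.

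Small heat shock proteins hold unfolded proteins without ATP. Of the 7 coding genes of this family that the name rule matches, only HSPB1, whose product also binds actin filaments, was listed. HSPB1 had 2 positions in control, at 2.65 and 1.92%, and 5 others after TGF-β1, from 3.07 to 6.59%. None was shared. The control positions, chromosome 7 positions 76303809 and 76303816, were annotated as 5'UTR on 1 transcript although they lay downstream of 3 of the coding positions. BAG3, which links HSP70 to small heat shock proteins and to the autophagy of damaged filamin, had 1 coding position after TGF-β1 only, at 9.59%.

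The J-domain proteins together had 38 control and 54 treated positions (ratio 1.42), in 22 genes of which 12 had more, 5 fewer and 5 equal numbers. That split was near the one over all genes in the share with more (54.5%), and 14 of their 16 shared positions were higher (87.5%, against 78.1% of all shared positions). Class A, the closest relatives of bacterial DnaJ, had 9 and 14 positions. DNAJA1, a main cytosolic partner of HSP70, had 5 and 7 positions on chromosome 9, and all 5 control positions recurred. Its coding positions 33026975, 33029917, 33030663 and 33034229 had 5.87, 2.82, 2.50 and 1.90% in control and 7.82, 5.16, 9.76 and 7.35% after TGF-β1. The 5'UTR position of DNAJA1, 33025293, was the only shared one of the gene that was lower after TGF-β1, with 10.4 and 6.76%, a difference of -3.68 points. DNAJA2 had 2 positions in both lists, with 4.29 and 6.40% at chromosome 16 position 46964728 and 2.30 and 9.73% at 46971477. DNAJA3, the J-domain partner of HSPA9 in mitochondria, had 2 and 5 positions, and its shared one had 4.79 and 5.79%. Of its treated-only positions 3 were at 12.8, 17.1 and 20.5%, the last at chromosome 16 position 4455730 in the 3'UTR.

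Class B genes had 8 control and 12 treated positions. DNAJB1, the heat-inducible J-domain protein, had 4 in each list on chromosome 19 but shared only 14516903, with 4.75 and 5.60%. Its control-only positions 14518149, 14518152 and 14518252 had 3.39, 2.65 and 2.01%, and the treated-only ones 14516488, 14518215 and 14516898 had 16.3, 10.2 and 3.57%. DNAJB12 had 2 and 4 positions, the shared one with 4.42 and 4.86%. DNAJB2 had 11.5% at a 3'UTR position in control and 2.62 and 5.15% at 2 others after TGF-β1. DNAJB6, a suppressor of protein aggregation, had 1 position in each list and none shared. DNAJB5 had 1 position after TGF-β1, at 2.39%.

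Class C, a varied group that shares little beyond the J domain, had 21 and 28 positions (ratio 1.33) in 14 genes, of which 7 had more, 5 fewer and 2 equal numbers. DNAJC5, the cysteine string protein of secretory vesicles, had 4 and 7 positions on chromosome 20, most of them in the 3'UTR. Its shared one, 63934528, had 8.22 and 9.85%, with an authors' p-value of exactly 0 in both groups, and treated-only positions had 15.01% in the 5'UTR and 12.3% in the 3'UTR. DNAJC8, a partner of spliceosomal proteins, had 1 and 5 positions: the control one, in the 3'UTR, had 10.9%, and the 5 coding ones after TGF-β1 had 1.57 to 4.28%. DNAJC7, which binds both HSP70 and HSP90, went the other way with 5 and 3 positions, and its shared position had 2.43 and 4.06%. That position was annotated as 5'UTR on 1 transcript alone and may be coding in others. DNAJC1 had 2 and 3 positions, with 2.46 and 3.98% at the shared one. The shared positions of DNAJC21, a ribosome assembly factor, and of DNAJC17, a nuclear protein, went from 2.53 to 4.69% and from 2.45 to 3.80%. That of DNAJC11, in the mitochondrial outer membrane, had 4.54 and 4.48%. The extremes lay at positions of 1 list: DNAJC19, of the mitochondrial import motor, had 27.9% in control only (chromosome 3 position 180986953), and DNAJC25 had 30.6% after TGF-β1 only (chromosome 9 position 111631586), where the authors' p-value was exactly 0. The DNAJC25 position and 1 at 7.87% were also counted for the readthrough gene DNAJC25-GNG10. DNAJC13, DNAJC14 and DNAJC18 had 1 position each in control only, DNAJC2 had 1 and DNAJC15 had 2 after TGF-β1 only.

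Among members that work in mitochondria (HSPA9, HSPD1, HSPE1, TRAP1, DNAJA3, DNAJC11, DNAJC15 and DNAJC19, a set put together after the values were seen), 7 of 8 genes had more positions after TGF-β1 (87.5%, against 51.2% of all genes), with 10 and 28 positions (ratio 2.80, against 1.46). The other 40 members had 64 and 103 (ratio 1.61). At 10% or more stood 1 of the 10 control positions of the mitochondrial set and 4 of the 64 others, where all genes had 12.3%. After TGF-β1 it was 7 of 28 (25%) and 10 of 103 (9.71%), where all genes had 18.4%. Of the 7 shared positions of the mitochondrial set 5 were higher (71.4%, against 78.1% of all). HSPA9 accounted for 9 of the 18 positions by which the mitochondrial set grew.

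Of the 79 coding genes that the name rule matches in RefSeq, 46 were listed in either table and 33 in neither. The share listed was not computed over all coding genes, so whether this coverage is unusual cannot be told. The 33 unlisted genes were 12 of the 26 in class C, 6 of 14 in the HSP70 and HSP110 class including HSPA2 and HSPA14, 6 of 7 small heat shock proteins including HSPB8, the partner of BAG3, 5 of 10 in class B, 2 chaperonin genes, DNAJA4 and the readthrough gene HSPE1-MOB4. The 2 other listed members were pseudogenes, both in control only: HSPD1P1 with 26.8% and HSPA8P5 with 2.69%. Reads of these may belong to HSPD1 and HSPA8, whose copies they are.

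Most member positions were coding, with 50 of 74 control (67.6%) and 100 of 131 treated ones (76.3%), against 74.7 and 76.4% over all genes. The share labelled 5'UTR was 21.6% in control (16 positions, Wilson interval 13.8 to 32.3) and 14.5% after TGF-β1 (19 positions, 9.49 to 21.5), against 9.80 and 9.88%. The tables give 1 segment per position, and 10 of these 16 (62.5%) and 12 of these 19 (63.2%) had the label from 1 transcript alone, against 39.4 and 40.0% of 5'UTR positions over all genes. Labels from more transcripts have the same limit. The DNAJB1 positions 14518149 and 14518152 had theirs from 2 transcripts, whereas the coding position 14516903 of that gene was on 18. Bases so labelled may be coding in other transcripts, so the share is one of labels. A neighbour within 10 bases in the same gene and list was present for 6 control (8.11%) and 19 treated (14.5%) positions, against 10.7 and 14.1%. An authors' p-value of exactly 0 was listed at 1 control (1.35%) and 9 treated (6.87%) member positions, against 7.99 and 11.02% over all genes.

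Cochaperones and other folding genes outside the name rule had 87 control and 172 treated positions (ratio 1.98, against 1.46 over all genes). Of 71 such genes 58 were listed, 37 with more and 14 with fewer (63.8 and 24.1%, against 51.2 and 35.3% of all genes). Of their 30 shared positions 23 were higher (76.7%, below the 78.1% of all shared positions), and the median difference over all 30, the 7 lower ones included, was 1.63 points, against 1.70 over all genes. The HSP90 cochaperones had 27 and 64 positions, with 11 of 17 listed genes having more: STIP1, which bridges HSP70 and HSP90, had 2 and 8, AHSA1, an activator of the HSP90 ATPase, 4 and 6, the phosphatase PPP5C 1 and 9, and the myosin chaperone UNC45A 8 and 7. HSP70 cochaperones had 21 and 31, with STUB1, a ubiquitin ligase for chaperone clients, at 4 and 5 and BAG6 at 3 and 5. Of their 6 shared positions 3 were higher and 3 lower, with a median difference of -0.21 points, while 10 of 11 were higher in the HSP90 cochaperones (median 2.01 points); this difference between the lists was not tested. Prefoldin and tubulin folding genes had 8 and 23, with the prefoldin subunit PFDN6 at 1 and 4 and PDCL at 2 and 3. Of the mitochondrial proteases and disaggregases, LONP1, which degrades misfolded matrix proteins, had 1 and 13 and AFG3L2 3 and 5, within 13 and 23 positions of the list. Ribosome-bound and general factors had 17 and 30, with the segregase VCP at 2 and 12 and the ER chaperone HYOU1 at 9 and 10. HSF1, the transcription factor of the heat shock response, had 1 position in each list, at 12.02 and 1.83%, and it was not the same one. The ER proteins that the name rule left out had 8 and 9 positions in 3 genes, with HSPA5 at 4 and 4, DNAJB11 at 3 and 5 and DNAJC10 at 1 and 0.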

How the data were processed

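Per the labels' protocols, polyadenylated RNA of 4 LX-2 libraries was sequenced. The submitters' processing notes name build hg38 and the tools STAR 2.7.6a, fastp 0.23.1 and featureCounts without their roles. For the caller of positions, the filters and the pooling of replicates, nothing is given in the sources used here. Per group, the authors deposited a fraction for each position (column diff, from 0.01 upward), whose subtraction is not stated, and a p-value below 0.05, with no statement on adjustment.

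Lines were merged to 1 per position and gene (8298 control, 12076 TGF-β1), and fractions were multiplied to percent. A position annotated to several genes counts for each. Positions were shared when position, strand and gene were the same. Medians have 95% order-statistic intervals and shares 95% Wilson intervals (scipy 1.17.1, pandas 2.3.3), which cover counting error only. Depth is unknown, and no test between groups was made. Members and lists were chosen with earlier results of these data known. Named members had at least 5 positions over both tables, a shared position, a change of 3 or more positions, or the highest value of their class. Of each other list the 2 genes with most positions were named, with ties. Further members were named after their values were seen. Alternatives were the minimum difference, the p-value limit, list length, p of 0, several genes and coding positions. Leaving out the pseudogenes and readthrough gene, or HSPA9, was added after seeing the data.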

Additional observations from a re-analysis of the deposited data

How the results depend on the processing

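In each of the 8 alternatives more chaperone positions were listed after TGF-β1 than in control, more chaperone genes had more positions than had fewer, and the median difference at shared positions was above 0 (from 1.44 to 1.95 points). Over all genes that median was above 0 in each alternative as well, from 1.66 to 2.71 points, so its direction is not particular to the chaperones. The list over all genes was also longer after TGF-β1 in each alternative, except where the shortening sets its length. The share of genes with more positions ran from 52.3 to 79.5% in the chaperones and from 39.0 to 58.5% over all genes. With positions of at least 5% only, the ratio was 5 in place of 1.77, against 1.75 over all genes. Then 4 genes had fewer positions in place of 8, and 4 of 5 shared positions were higher, against 76.3% over all genes. With p-values below 0.001 only, 4 genes had fewer positions and 21 of 23 shared positions were higher, against 81.0% over all genes. The share of genes with fewer positions was not computed over all genes in the alternatives. Elsewhere the ratio ran from 1.38, with the TGF-β1 list shortened, to 2.27, with p-values below 0.001. All genes had 1.00 in the first, where the shortening sets it, and 1.77 in the second. No paired analysis was possible because the tables hold 1 value per group and none per library, and leaving out a replicate was not run for the same reason. Depth is unknown, so which missing positions were covered cannot be told.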
